A study of Homo sapiens with 60 samples.

Results

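The collagen genes were taken as every gene symbol in the tables made of COL, a number, A and a number, which gave 44 of the 19712 genes listed. Their RNA was followed by RNA-seq in PC9, HCC827, H1975 and HCC2935, established non-small cell lung cancer lines that carry an EGFR mutation, each in 5 arms of 3 replicates, 60 libraries in 20 groups. In the DMSO arm, parental cells were kept free of drug for 21 days and then given vehicle for 24 h. The acute arm had the same start and then 500 nM osimertinib, an inhibitor of mutant EGFR, for 24 h. Drug-tolerant persisters (DTPs) were the cells left after 21 days in 500 nM osimertinib. In the short washout, DTPs were returned to medium without drug for 24 h. In the long washout they stayed without drug until growth resumed, which was 7 days for PC9, 4 days for HCC827, 3 days for H1975 and 10 days for HCC2935. All were monolayer cultures of an established line, the design text calls the replicates biological triplicates, and the p-values below measure only the spread between these libraries. The comparisons ask which collagens each line makes, what a day of drug and long survival in drug do to them, and what is left after the drug is taken away.

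Collagens are chains with long runs of a glycine repeat that wind around each other into a helix. Fibrillar collagens such as types I, III and V build the fibres of connective tissue. Type IV chains form the sheet-like network of basement membranes, on which epithelial cells such as those of the lung airway and alveolus rest. Type VI makes beaded filaments, type VII anchors basement membranes to the tissue below, and the fibril-associated collagens (FACIT), such as types XII and XVI, decorate fibres. Transmembrane collagens such as types XIII and XVII sit in the cell surface, and the multiplexins XV and XVIII carry heparan or chondroitin sulphate chains. In tumours much of the collagen comes from fibroblasts, but carcinoma cells make some of their own. The symbols were grouped into these classes from textbook knowledge.

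The 6 type IV genes lie as 3 head-to-head pairs that start next to each other and are read in opposite directions, and the results below turn on these pairs and on COL5A1, COL12A1 and COL13A1. The RefSeq starts (GRCh38.p14) were 127 bases apart for COL4A1 and COL4A2 on chromosome 13, 419 for COL4A3 and COL4A4 on chromosome 2, and 380 for COL4A5 and COL4A6 on chromosome X. To show what the members of a pair share, the stretch between the starts that holds no annotated exon is printed for the COL4A3 and COL4A4 pair, and the 250 bases next to the COL4A5 start for the COL4A5 and COL4A6 pair. Only 2 bases between COL4A1 and COL4A2 lay outside exons, so none is printed. The stretches before COL5A1 and COL12A1, which were higher in DTPs of all 4 lines, and before COL13A1, which moved in opposite directions between lines, follow. Each is printed 5′ to 3′ from RefSeq GRCh38.p14, on the plus strand for the pairs and on the gene's own strand otherwise. Capitals mark, on either strand, a GC box, spelled GGGCGG here, a TATA box, searched as the letters TATAAA, or a CCAAT box.
COL4A3 and COL4A4, chr2:227164237-227164395, plus strand: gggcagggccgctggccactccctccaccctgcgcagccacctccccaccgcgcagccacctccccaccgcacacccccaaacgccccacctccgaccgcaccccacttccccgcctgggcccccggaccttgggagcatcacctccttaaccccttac
COL4A5 and COL4A6, chrX:108439588-108439837, plus strand: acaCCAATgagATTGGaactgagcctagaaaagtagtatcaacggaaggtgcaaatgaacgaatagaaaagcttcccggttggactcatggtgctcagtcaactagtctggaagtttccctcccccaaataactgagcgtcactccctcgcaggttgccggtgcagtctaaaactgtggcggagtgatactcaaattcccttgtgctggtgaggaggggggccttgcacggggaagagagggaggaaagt
COL5A1, chr9:134641553-134641773, plus strand: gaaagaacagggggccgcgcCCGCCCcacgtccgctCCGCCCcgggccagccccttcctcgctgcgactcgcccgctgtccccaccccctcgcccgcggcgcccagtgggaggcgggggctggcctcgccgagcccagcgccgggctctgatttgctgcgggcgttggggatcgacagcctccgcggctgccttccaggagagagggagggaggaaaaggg
COL12A1, chr6:75206054-75206303, minus strand: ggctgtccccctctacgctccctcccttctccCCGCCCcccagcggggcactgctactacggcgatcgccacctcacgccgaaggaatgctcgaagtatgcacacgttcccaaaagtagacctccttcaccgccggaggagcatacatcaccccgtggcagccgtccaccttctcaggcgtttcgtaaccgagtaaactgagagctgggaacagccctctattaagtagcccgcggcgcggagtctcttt
COL13A1, chr10:69801656-69801866, plus strand: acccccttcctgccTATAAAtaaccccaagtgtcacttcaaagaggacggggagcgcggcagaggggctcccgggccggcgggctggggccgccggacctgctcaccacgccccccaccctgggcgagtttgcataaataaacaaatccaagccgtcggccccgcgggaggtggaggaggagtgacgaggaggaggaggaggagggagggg

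The COL5A1 stretch held 2 GC boxes and 25 CG dinucleotides in its 221 bases, and the COL12A1 stretch 1 GC box and 21 CG. The COL13A1 stretch held 1 TATA box, the stretch beside COL4A5 held 2 CCAAT boxes, and none of the motifs searched lay in the 159 bases between COL4A3 and COL4A4. Promoter windows of 300 bases (250 before and 50 after a start) were found for 32 of the 44 collagens, 44 windows in all, and were set beside all 35116 windows of the RefSeq table. A GC box was in 24 of the 44 collagen windows (54.5%, against 45.0% of all windows), a CCAAT box in 14 (31.8% against 34.6%) and a TATA box in 8 (18.2% against 11.5%). The AP-1 site TGANTCA was in 1 collagen window, that of COL10A1 (2.27% against 7.71%), and the E-box CACCTG, which ZEB repressors can bind, in 5 (11.4% against 20.6%). All were searched on both strands, and a match says only that the letters are there.

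Library sizes were 17.7 to 49.1 M estimated counts (M for 1000000), with PC9 and H1975 the deeper lines. Each library was nearest, by correlation over all genes, to another of its own line in 60 of 60 cases and to one of its own group in 46 of 60. The epithelial markers EPCAM, CDH1, KRT7, KRT8, KRT18 and KRT19 were all at 1 TPM (transcripts per 1000000, corrected for gene length) or more in every group, with a sum of 2297 to 15820 TPM per library. Of 8 fibroblast and stromal markers, DCN, FAP, PDGFRA, POSTN and THY1 stayed below 1 TPM in the mean of every group. LUM reached 5.69 TPM in HCC827 DTPs, PDGFRB 7.08 TPM in acute H1975, and ACTA2 24.1 TPM at its highest. The sum of the 8 was 1.07 to 42.3 TPM per library. Of 3 endothelial markers, VWF stayed below 1 TPM in every group while CDH5 reached 19.3 TPM and PECAM1 7.83 TPM, and of 3 leukocyte markers CD68 was at 9.92 to 163 TPM while PTPRC and CD14 reached 2.91 and 3.98 TPM. Of the lung adenocarcinoma markers in the tables, NAPSA was at 0.343 to 378 TPM and SFTPB at no more than 1.05 TPM.

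Most collagen genes were expressed in at least 1 of these carcinoma lines. Taking a mean of at least 1 TPM in at least 1 of the 20 groups as expressed, 32 of the 44 were, 23 reached 10 TPM and 11 reached 100 TPM. The count was 37 at a threshold of 0.5 TPM and 28 at 2 TPM. All 6 type IV genes, COL7A1, both multiplexins and both genes left in no class (COL26A1 and COL28A1) were expressed, as were 8 of 11 fibrillar, 8 of 10 FACIT, 2 of 4 transmembrane, 2 of 5 type VI and 1 of 3 network-forming genes. The 12 others were COL2A1, COL5A3, COL6A3, COL6A5, COL6A6, COL8A2, COL9A1, COL10A1, COL14A1, COL23A1, COL24A1 and COL25A1. Their highest group means ran from 0.0119 TPM for COL6A5 to 0.959 TPM for COL6A3, the third chain of the usual type VI trimer, and each had counts in at least 1 library. COL2A1 and COL10A1, the collagens of cartilage and of its growth plate, were thus among those not expressed.

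**Figure D1:**
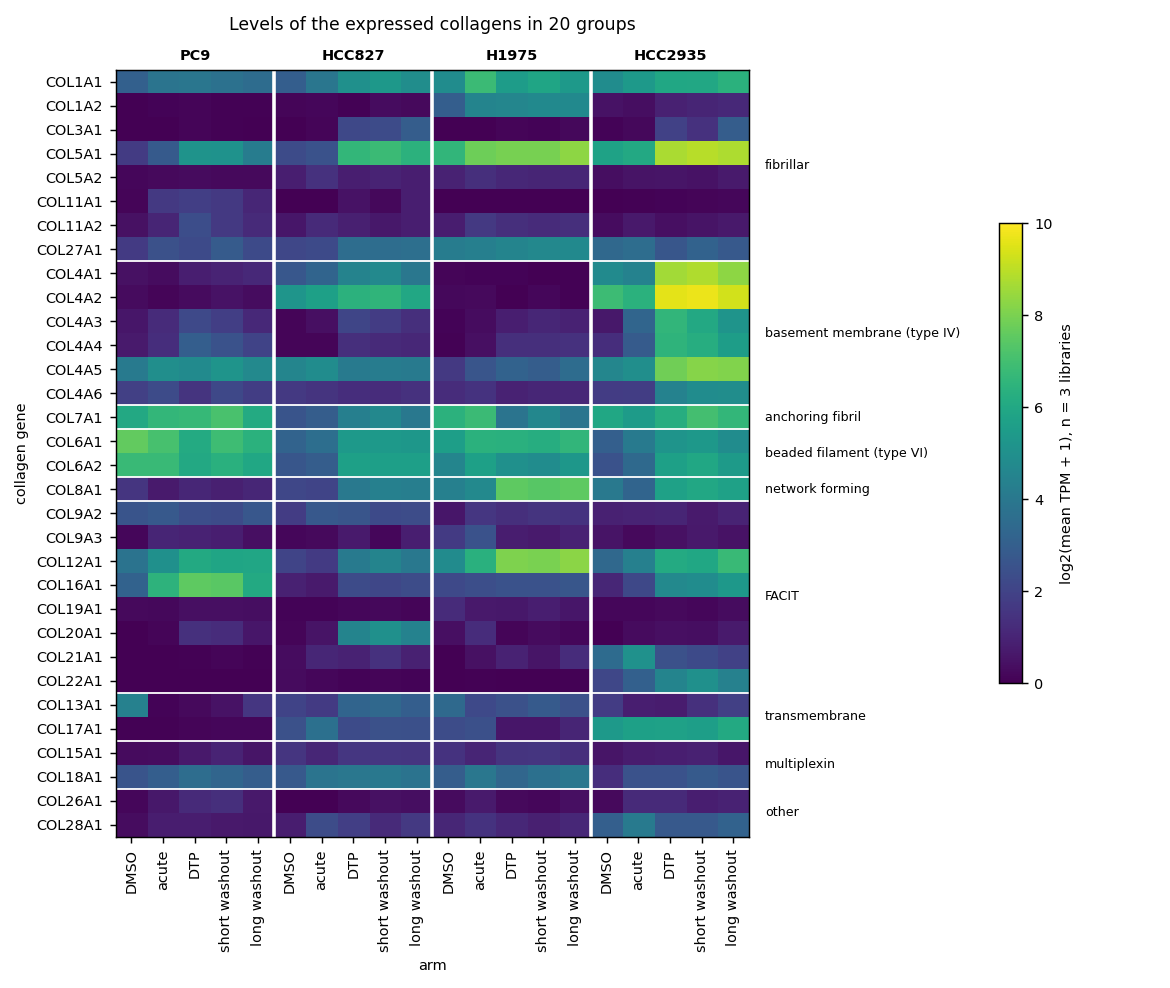
Mean level of the 32 expressed collagens in 20 groups, as log2(mean TPM + 1) on the colour scale, with genes in rows by class and arms in columns by line (n = 3 libraries a group). COL4A2 in HCC2935 is the brightest row, COL6A1 and COL6A2 are bright in PC9 under DMSO, and COL4A1 and COL4A2 stay at or below 1.23 TPM in PC9 and H1975 in every arm.

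Each line had its own set of collagens under DMSO. In PC9, type VI made up 66.5% of the summed collagen TPM and was carried by COL6A1 at 225, 174 and 183 TPM and COL6A2 at 118, 96.7 and 107 TPM in the 3 libraries. In HCC827, type IV made up 52.0%, with COL4A2 at 36.1, 40.8 and 32.6 TPM. H1975 was led by fibrillar COL5A1, at 114, 92.2 and 78.0 TPM, and by COL7A1, at 113, 64.9 and 80.1 TPM. COL1A2, the second chain of type I collagen, was above 1 TPM in all DMSO libraries of H1975 (11.3, 5.65 and 3.56 TPM) and reached no more than 1.51 TPM in any library of the other lines. HCC2935 had type IV at 39.2%, with COL4A2 at 118, 129.7 and 94.7 TPM, and COL17A1, a hemidesmosome collagen, at 45.9, 40.4 and 38.0 TPM. All 34 collagens that could be tested under DMSO differed between the 4 lines (edgeR quasi-likelihood F-test over 12 libraries, adjusted p below 0.05), against 91.2% of all genes tested, so the share for collagens is near that of genes at large. In such bulk RNA, fewer cells of a kind and less RNA per cell cannot be told apart.

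The summed TPM of the 44 collagens was lowest under DMSO in HCC827, at 132, 125 and 129, and lay between 332 and 496 in the DMSO libraries of the other lines. In DTPs it was 481, 425 and 534 in HCC827, and 2184, 2740 and 2533 in HCC2935, where the DMSO libraries held 425, 448 and 412. PC9 went from 496, 425 and 439 to 596, 596 and 632, and H1975 from 452, 385 and 332 to 1067, 726 and 1060. The DTP libraries lay above the DMSO libraries in every line, with ratios of the means of 1.34 in PC9, 3.74 in HCC827, 2.44 in H1975 and 5.80 in HCC2935. In HCC2935 the collagens then took 0.282% of the listed TPM, against 0.0488% under DMSO. Within these sums the make-up shifted. Type VI made up 21.9% of the collagen TPM in PC9 DTPs, and FACIT 42.2% in place of 5.75%. In H1975, COL7A1 went from 22.1% of the sum to 1.40%, FACIT from 9.17% to 28.9% and the network-forming genes from 5.01% to 19.3%. In HCC827 the fibrillar share was 30.2% in DTPs against 12.3% under DMSO, and in HCC2935 the type IV share was 64.0% against 39.2%. These sums and shares are descriptions with no test.

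**Figure D2:**
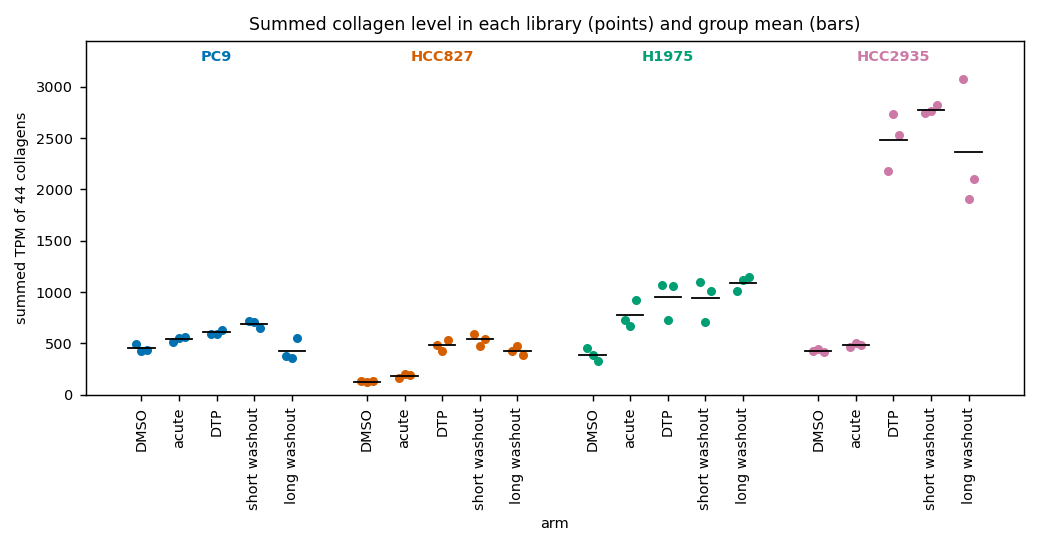
Summed TPM of the 44 collagens in each library (points) and the mean of each group (bars), by line and arm, n = 3 a group. The HCC2935 DTP and washout libraries sit between 1905 and 3074, far above the 412 to 448 of its DMSO libraries, and HCC827 rises from the lowest start.

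Acute osimertinib was followed by calls in every line, mostly of higher levels. A gene was called where the edgeR quasi-likelihood test gave an adjusted p below 0.05 over all genes tested in that comparison. In PC9, 14 collagens rose and 3 fell of 26 tested, where 34.4% of all genes tested rose and 34.1% fell. HCC827 had 8 rises and no fall among 26 (all genes 20.2% and 22.1%), a count that was 4 without acute replicate 2 and 5 without DMSO replicate 3. In H1975, 16 rose and 2 fell of 33 (21.2% and 23.7%). In HCC2935, 15 rose and 3 fell of 31 (22% and 25.1%). The median log2 fold change was 0.748 in PC9, 0.396 in HCC827, 1.09 in H1975 and 0.552 in HCC2935, where the medians of all genes lay between 0.00815 and 0.0312.

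COL1A1, the main chain of type I collagen, was the only collagen called higher in all 4 lines after 24 h of drug. It went from 7.94, 8.24 and 5.90 TPM to 13.8, 12.1 and 14.9 TPM in PC9 and from 7.06, 4.73 and 9.16 to 12.8, 16.2 and 14.1 TPM in HCC827. In H1975 the values were 46.7, 19.9987 and 17.5 TPM under DMSO and 89.9, 74.0 and 167 TPM with drug, and in HCC2935 they were 26.4, 25.7 and 33.1 and 33.2, 42.1 and 44.5 TPM. The acute and DMSO libraries did not overlap in any line, although the spread within H1975 was wide. The log2 fold changes were 0.89 ± 0.13 (SE; adjusted p = 0.000289), 0.96 ± 0.22 (0.00803), 1.95 ± 0.44 (0.00943) and 0.48 ± 0.12 (0.0101) in PC9, HCC827, H1975 and HCC2935. The HCC2935 call was lost in a fit of all 15 libraries of the line (log2 fold change 0.53, edgeR adjusted p = 0.0959), which leaves 3 lines. Another 7 collagens were called higher in 3 lines, namely COL4A3, COL4A4, COL4A5, COL11A2, COL12A1, COL18A1 and COL28A1. The COL4A3 call in HCC827 (edgeR adjusted p = 0.0285) was lost without the filter, with DESeq2, limma, the replicate block and all 15 libraries (adjusted p = 0.0615 to 0.119) and without any one of the 6 libraries (0.0506 to 0.148). Its PC9 call was lost without DMSO replicate 1 or 3 or acute replicate 1 or 2 (0.0634 to 0.105). In HCC2935 the COL12A1 call was lost with DESeq2 (adjusted p = 0.106) and without DMSO replicate 3 or acute replicate 1 or 2 (0.0524 to 0.137), and the COL4A5 call without DMSO replicate 2 or 3 or acute replicate 1 or 2 (0.0882 to 0.116).

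Within a day PC9 had far less of the transmembrane collagen COL13A1 and more of the FACIT collagen COL16A1. COL13A1 was at 17.6, 21.2 and 21.7 TPM under DMSO and at 0.0863, 0.0181 and 0.129 TPM with drug, and fell by 8.14 ± 0.31 on the log2 scale (adjusted p = 2.16e-07). COL16A1 went from 7.59, 8.37 and 7.49 to 80.7, 97.1 and 84.8 TPM (log2 fold change 3.49 ± 0.11, adjusted p = 1.47e-07). Neither gene had overlapping groups. COL6A1, the largest collagen of untreated PC9, fell in that line, from 225, 174 and 183 to 123, 125 and 153 TPM (fell by 0.54 ± 0.11, adjusted p = 0.00194), and rose in H1975 (0.75 ± 0.10, adjusted p = 0.000868) and HCC2935 (1.15 ± 0.13, adjusted p = 7.65e-05). COL8A1, a short-chain collagen of the vessel wall and cornea, fell in PC9 and HCC2935. In HCC2935 the kidney and lung basement membrane chains COL4A3 and COL4A4 rose early, COL4A3 from 0.544, 0.609 and 0.513 to 6.82, 11.8 and 7.00 TPM and COL4A4 from 1.47, 1.94 and 0.929 to 6.23, 7.93 and 4.81 TPM, while COL4A2 fell from 118, 129.7 and 94.7 to 84.3, 90.8 and 75.4 TPM (fell by 0.46 ± 0.14, adjusted p = 0.0241). That fall was no longer called without DMSO replicate 1 or 2 or acute replicate 1 or 3 (adjusted p = 0.0533 to 0.0981). With the replicate number as a block, which the paired libraries of this comparison allow, the HCC2935 calls numbered 21 in place of 18, and COL4A1 and COL7A1 were then called lower and COL5A1 higher. The acute effect differed between lines for 12 of 39 collagens (30.8%), against 40.5% of all genes tested.

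In DTPs the collagens called higher outnumbered those called lower in every line. In PC9, 18 rose and 6 fell of 30 tested, against 35.4% and 35.9% of all genes. HCC827 had 21 rises and no fall among 30, against 19.4% and 17.2%, while 1 fall was called with RLE scaling, no filter, DESeq2 or the replicate block, and 2 with all 15 libraries of the line. In H1975, 13 rose and 7 fell of 33, against 22.4% and 23.4%, so the share of falls was near that of all genes. In HCC2935, 17 rose and 3 fell of 29, against 25.3% and 27.2%. The median log2 fold change was 0.859, 1.88, 0.433 and 1.59 in PC9, HCC827, H1975 and HCC2935, where the medians over all genes tested were 0.0177, 0.016, 0.0114 and -0.0013. Across lines, 38 collagens were tested in at least 1 line and 21 in all 4. COL5A1, COL12A1, COL4A3 and COL4A4 rose in all 4 lines, COL1A1, COL3A1, COL4A1, COL4A5, COL6A1, COL8A1, COL16A1 and COL18A1 in 3, and none fell in all 4. There were 11 collagens called in opposite directions in different lines, and the DTP effect differed between lines for 26 of 38 (68.4%), against 61.6% of all genes tested.

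**Figure D3:**
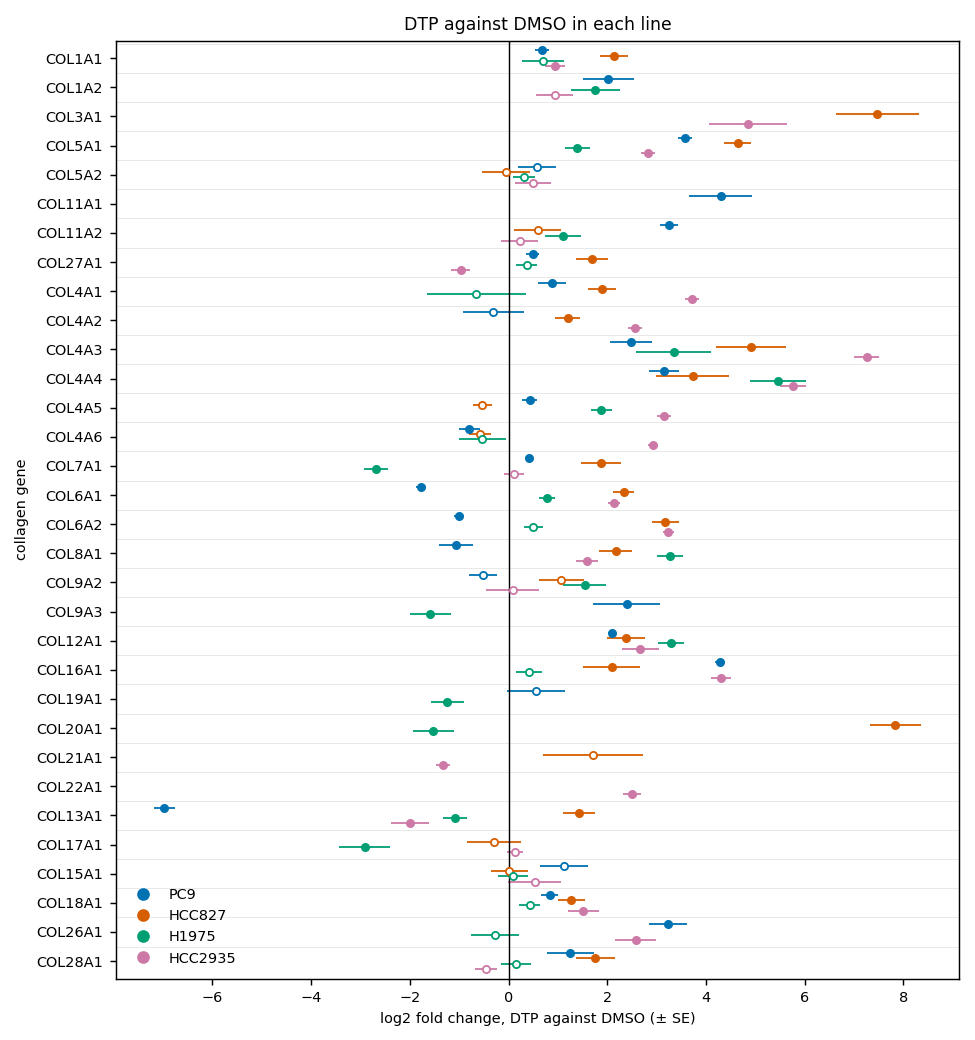
log2 fold change of DTP against DMSO (x axis) with its standard error for the expressed collagens (y axis, by class), 3 libraries against 3 in each line. Filled points passed an adjusted p of 0.05 in edgeR and open points did not. Values against a group with 3 counts or fewer are left out. COL5A1, COL12A1, COL4A3 and COL4A4 have filled points to the right of 0 for each line, while COL6A1, COL7A1 and COL13A1 have filled points on both sides.

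Among fibrillar collagens COL5A1, a chain that sets the diameter of type I fibres, had the widest reach. In PC9 its DMSO libraries held 2.46, 2.09 and 2.54 TPM and its DTP libraries 33.5, 27.6 and 40.8 TPM. In HCC827 it went from 4.73, 3.88 and 2.89 to 81.6, 79.8 and 129 TPM, from a minor to the leading collagen of that line. In HCC2935 it went from 53.3, 59.3 and 47.3 to 353, 483 and 437 TPM. H1975 already held 114, 92.2 and 78.0 TPM under DMSO and had 282, 154 and 297 TPM in DTPs. The DTP libraries lay above the DMSO libraries in every line. The log2 fold change was 3.58 ± 0.14 in PC9 (adjusted p = 4.95e-08), 4.64 ± 0.27 in HCC827 (adjusted p = 2.95e-05), 1.39 ± 0.25 in H1975 (adjusted p = 0.00243) and 2.82 ± 0.14 in HCC2935 (adjusted p = 1.62e-06), and these differed between lines (adjusted p = 1.45e-06). COL5A2, the usual partner chain of COL5A1 in type V collagen, was called in no line for DTPs against DMSO. It stayed at or below 2.38 TPM in every library. Other comparisons called it higher in acute H1975 and in HCC2935 long washout, both against DMSO, and lower in HCC827 DTPs than after acute drug.

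The type I chains did not move as one. COL1A1 rose in DTPs of PC9 (0.67 ± 0.14, adjusted p = 0.00204), HCC827 (2.14 ± 0.29, adjusted p = 0.000815) and HCC2935 (0.94 ± 0.20, adjusted p = 0.00397). In HCC827 it went from 7.06, 4.73 and 9.16 to 40.8, 21.2 and 32.3 TPM and in HCC2935 from 26.4, 25.7 and 33.1 to 41.5, 78.3 and 63.8 TPM. In H1975 the DTP libraries, at 70.2, 25.4 and 40.4 TPM, overlapped the DMSO libraries and the change was not called (0.70 ± 0.43, adjusted p = 0.213). COL1A2 was called higher in H1975, with overlapping libraries at 11.3, 5.65 and 3.56 and 37.0, 10.2 and 21.5 TPM, and in PC9, where no group mean passed 0.105 TPM. COL3A1, which often forms mixed fibres with type I, was nearly absent under DMSO and reached 6.79, 2.08 and 1.72 TPM in HCC827 DTPs and 0.549, 4.13 and 3.71 TPM in HCC2935 DTPs. The log2 fold change was 7.47 ± 0.84 in HCC827 (adjusted p = 0.000346) and 4.85 ± 0.78 in HCC2935 (adjusted p = 0.000821). In H1975 it stayed rare, with 3 counts over the DMSO group and 50 over the DTP group, a ratio of 16.5 after scaling to library size (exact 95% interval 5.32 to 82.5, counting error only).

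Type XI chains, which are known from cartilage, appeared in PC9. COL11A1 was at 0.0649, 0.241 and 0.00883 TPM under DMSO and at 1.41, 3.69 and 2.83 TPM in DTPs (4.30 ± 0.64, adjusted p = 0.000193), and had reached 0.787, 2.83 and 2.77 TPM within the first day. COL11A2 went from 0.412, 0.343 and 0.334 to 3.46, 4.87 and 4.09 TPM in the same line. In HCC827, COL11A1 had no count in the 3 DMSO libraries and 42 counts over the DTP group, at least 14.8-fold higher after scaling to library size, with the floor set at 3 counts over the group. COL27A1 rose in PC9 and HCC827 and fell in HCC2935, from 7.90, 7.81 and 12.6 to 5.6, 5.6 and 5.02 TPM (-0.97 ± 0.18, adjusted p = 0.00202).

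Type IV collagen was the largest change in HCC2935, where all 6 of its genes rose. COL4A2 went from 118, 129.7 and 94.7 to 682, 825 and 783 TPM (2.56 ± 0.14, adjusted p = 2.51e-06). Its partner COL4A1 went from 26.6, 30.1 and 22.5 to 339, 449 and 388 TPM (3.72 ± 0.15, adjusted p = 6.43e-07). These chains make the common form of the basement membrane network. In HCC827, COL4A2 had 129.6, 58.8 and 69.7 TPM in DTPs against 36.1, 40.8 and 32.6 TPM under DMSO (1.20 ± 0.25, adjusted p = 0.00626), and COL4A1 33.3, 13.5 and 16.7 against 5.39, 6.27 and 4.99 TPM. The first replicate stood above the other DTP libraries for both genes. In PC9 and H1975 COL4A2 stayed below 1 TPM in every group, and COL4A1 below 1 TPM in PC9 DTPs, where it was nevertheless called higher (0.89 ± 0.29, adjusted p = 0.0184), a call lost without DMSO replicate 3 or DTP replicate 1 or 3 (adjusted p = 0.0563 to 0.072).

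COL4A3 and COL4A4, chains of the mature glomerular and alveolar basement membrane, rose in DTPs of all 4 lines, from very low starts. In HCC2935, COL4A3 went from 0.544, 0.609 and 0.513 to 80.5, 129 and 77.8 TPM (7.25 ± 0.26, adjusted p = 3.21e-07) and COL4A4 from 1.47, 1.94 and 0.929 to 80.2, 107 and 81.5 TPM (5.77 ± 0.26, adjusted p = 1.14e-06). Elsewhere the levels were far lower. COL4A4 reached 6.15, 4.30 and 10.5 TPM in PC9 DTPs, 3.23, 0.712 and 0.610 TPM in HCC827 and 2.58, 0.663 and 1.45 TPM in H1975, with log2 fold changes of 3.15 ± 0.30 (adjusted p = 8.34e-06), 3.73 ± 0.74 (0.00481) and 5.46 ± 0.57 (0.000213). COL4A3 reached 3.64, 2.31 and 5.03 TPM in PC9 DTPs, 6.65, 2.14 and 1.04 TPM in HCC827 and 1.33, 0.300 and 0.669 TPM in H1975, with log2 fold changes of 2.48 ± 0.43 (0.000525), 4.91 ± 0.72 (0.00117) and 3.35 ± 0.76 (0.00706). No DTP library overlapped a DMSO library for either gene. The transcript AC097662.1 overlaps exons of COL4A3 on the opposite strand, and COL4A2 is overlapped likewise by COL4A2-AS1 and COL4A2-AS2. Whether counting used strand is not given in the sources used here, so reads of such partners cannot be told apart.

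The third pair, COL4A5 and COL4A6, also rose together in HCC2935. COL4A5, the gene of X-linked Alport nephritis, went from 26.3, 21.3 and 20.9 to 194, 240.3 and 252 TPM (3.15 ± 0.14, adjusted p = 9.83e-07), and COL4A6 from 2.48, 2.35 and 2.41 to 20.4, 21.1 and 20.6 TPM (2.93 ± 0.10, adjusted p = 2.99e-07). In PC9 the members of the pair parted, with COL4A5 called higher (0.43 ± 0.14, adjusted p = 0.0226) and COL4A6 called lower (-0.79 ± 0.21, adjusted p = 0.0071). The COL4A5 call was lost without DMSO replicate 3 or DTP replicate 1 or 3 (adjusted p = 0.0685 to 0.0833). In H1975, COL4A5 rose from 2.46, 2.26 and 1.80 to 6.01, 8.22 and 9.39 TPM and COL4A6 was not called. In HCC827 neither was called, with log2 fold changes of -0.53 ± 0.19 and -0.58 ± 0.23 (adjusted p = 0.052 and 0.0715).

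Within each pair the level ratio was not constant, on the TPM scale that corrects for length. COL4A1 stood at 0.231 of COL4A2 under DMSO in HCC2935 and at 0.513 in its DTPs, and at 0.152 and 0.246 in HCC827. COL4A3 stood at 0.384 of COL4A4 under DMSO in HCC2935 and at 1.07 in DTPs. COL4A5 exceeded COL4A6 in every group, by a ratio from 1.55 in untreated H1975 to 15.1 in acute HCC827, and in HCC2935 the ratio was 9.46 under DMSO and 11 in DTPs. These ratios are descriptions of group means with no test.

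**Figure D4:**
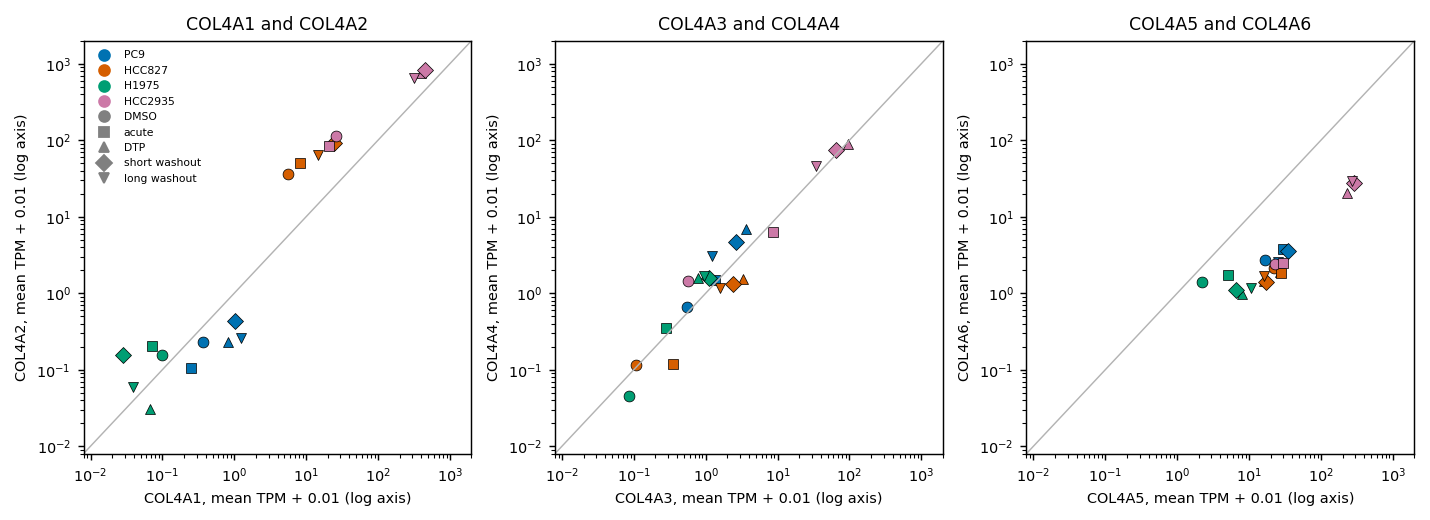
Mean TPM + 0.01 of the genes of each head-to-head type IV pair on log axes, the first gene on the x axis and the second on the y axis, for 20 groups (colour for line, symbol for arm, n = 3 a group), and the grey line marks equal levels. The HCC2935 DTP and washout groups lie at the upper right in each panel, and all points of COL4A5 and COL4A6 lie below the line.

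Type VI collagen, a microfibril around many cells, moved in opposite directions. COL6A1 fell in PC9 DTPs to 74.5, 65.6 and 65.2 TPM from 225, 174 and 183 TPM (fell by 1.77 ± 0.10, adjusted p = 3.12e-07). COL6A2 fell in PC9 to 71.6, 61.0 and 60.5 TPM from 118, 96.7 and 107 TPM (fell by 1.00 ± 0.10, adjusted p = 8.95e-06). In HCC827, COL6A1 rose from 7.96, 7.70 and 8.26 to 28.6, 47.1 and 45.8 TPM (2.33 ± 0.21, adjusted p = 0.000134) and in HCC2935 from 6.02, 7.66 and 7.65 to 33.2, 33.8 and 38.8 TPM (2.14 ± 0.12, adjusted p = 3.45e-06). H1975 had a smaller rise, from 46.2, 52.3 and 46.3 to 81.6, 64.2 and 98.6 TPM (0.78 ± 0.16, adjusted p = 0.00484). COL6A2 followed COL6A1 in HCC827 (3.18 ± 0.28) and HCC2935 (3.24 ± 0.11), and in H1975 it was not called (0.50 ± 0.20, adjusted p = 0.0643). The COL6A1 effect differed between lines (adjusted p = 3.33e-10). COL6A3, needed for the usual type VI trimer, stayed below 1 TPM in every group mean.

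COL7A1, the anchoring fibril collagen, also parted by line. In H1975 it fell from 113, 64.9 and 80.1 to 16.4, 13.9 and 9.76 TPM (fell by 2.68 ± 0.24, adjusted p = 0.000129), although the acute libraries were at 68.5, 95.9 and 168 TPM. In PC9 it rose from 66.9, 62.1 and 64.7 to 106, 93.8 and 110.4 TPM (0.41 ± 0.07, adjusted p = 0.000387), and in HCC827 from 4.27, 5.10 and 6.0 to 7.89, 19.7 and 28.9 TPM (1.87 ± 0.41, adjusted p = 0.00781). In HCC2935 the libraries, 46.5, 56.2 and 81.9 TPM under DMSO and 92.2, 65.7 and 64.6 TPM in DTPs, overlapped and no change was called (0.11 ± 0.20, adjusted p = 0.692). COL17A1, which works beside it in the anchoring of epithelial cells, fell in H1975 too, from 6.16, 2.24 and 3.49 to 0.367, 0.801 and 0.394 TPM (fell by 2.91 ± 0.52, adjusted p = 0.00213). In HCC2935 it lay between 38.0 and 84.9 TPM in all 15 libraries, with no call in DTPs. After long washout COL17A1 was called higher there than under DMSO. In the same H1975 DTPs 3 of the 6 epithelial markers fell, CDH1 (by 5.14 ± 0.41), EPCAM (by 3.27 ± 0.30) and KRT7 (by 1.00 ± 0.14), while KRT8, KRT18 and KRT19 were not called (adjusted p = 0.386, 0.0833 and 0.0775). Their part in the COL7A1 and COL17A1 values was not tested.

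COL8A1 rose to high levels in H1975 DTPs, from 17.0, 28.1 and 13.0 to 189.7, 151 and 209 TPM (3.28 ± 0.27, adjusted p = 8.78e-05), with no change called after 24 h of drug. It also rose in HCC827, to 9.76, 14.3 and 21.9 TPM from 4.23, 3.62 and 2.33 TPM (2.17 ± 0.34, adjusted p = 0.00151), and in HCC2935, to 53.5, 60.6 and 43.2 TPM from 17.2, 19.0 and 10.1 TPM (1.59 ± 0.23, adjusted p = 0.000426). PC9, with the lowest levels, went the other way, from 2.18, 1.51 and 2.13 to 1.57, 0.550 and 1.22 TPM (-1.07 ± 0.34, adjusted p = 0.0178), a call that was lost with limma on the log2 TPM values (adjusted p = 0.0563) and without DMSO replicate 1 or 3 (0.0538 and 0.0546).

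**Figure D5:**
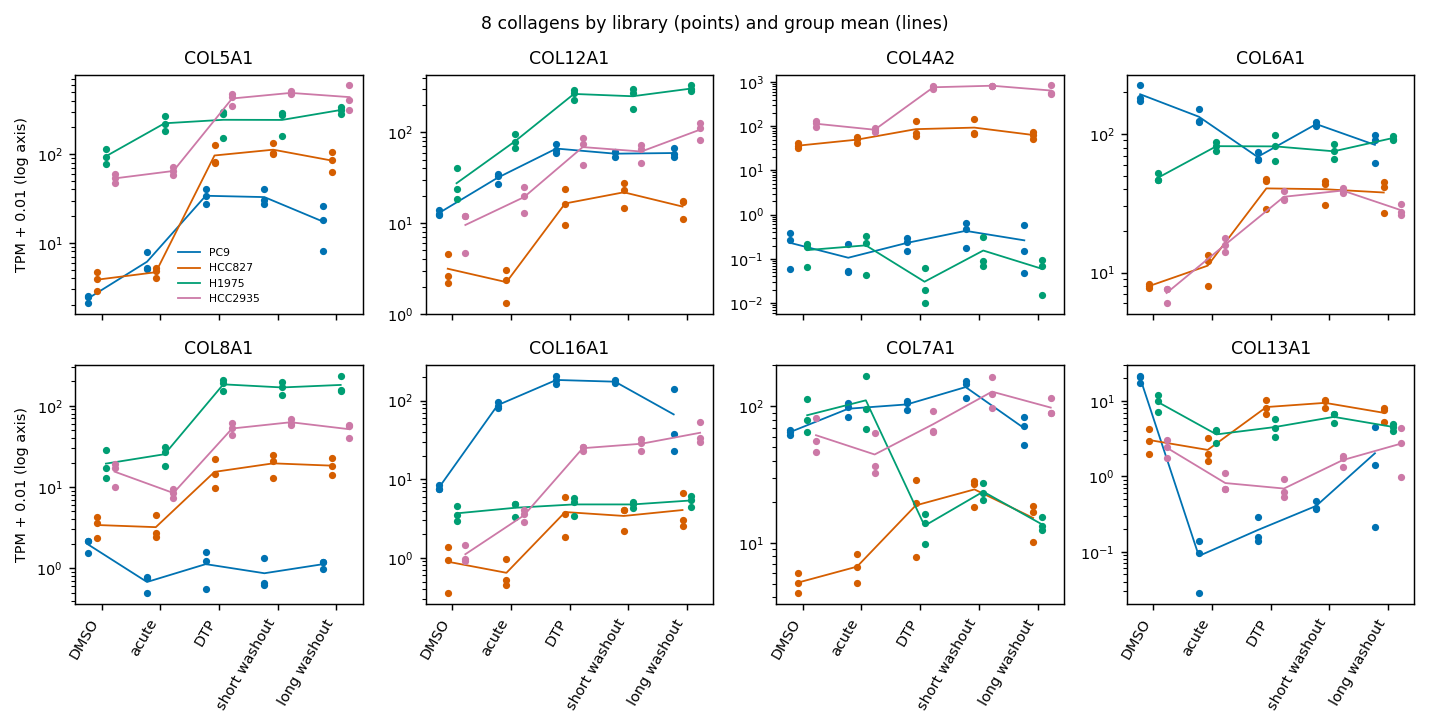
TPM + 0.01 on log axes for 8 collagens in every library (points, 3 a group) and the group means (lines), by arm and line; axes differ between panels. COL5A1 and COL12A1 are higher in DTPs than under DMSO in each line, COL6A1 is lower in DTPs than under DMSO in PC9 alone, COL13A1 is lower in PC9, H1975 and HCC2935, and COL7A1 is lower in H1975. In the washout arms none of the 8 is called against DTPs in HCC827, H1975 or HCC2935 (main edgeR fit). In PC9, COL6A1 and COL7A1 are called higher after short washout. After long washout COL7A1 is called lower and COL13A1 higher there.

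The FACIT collagen COL12A1, which links fibres to their surroundings, rose in DTPs of all 4 lines. It went from 13.9, 12.6 and 12.2 to 64.3, 59.3 and 75.4 TPM in PC9 (2.09 ± 0.09, adjusted p = 5.89e-08) and from 2.61, 4.60 and 2.18 to 9.43, 16.1 and 23.9 TPM in HCC827 (2.39 ± 0.38, adjusted p = 0.00181). In H1975 it went from 18.6, 40.0 and 23.9 to 297, 229 and 272 TPM (3.30 ± 0.26, adjusted p = 8.02e-05) and became the leading collagen. In HCC2935 it went from 11.8, 12.1 and 4.65 to 44.1, 75.1 and 87.4 TPM (2.67 ± 0.37, adjusted p = 0.000363). No DTP library overlapped a DMSO library, and a difference between the 4 effects was not called (adjusted p = 0.168).

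COL16A1 became the leading collagen of PC9 DTPs. It went from 7.59, 8.37 and 7.49 to 161, 208 and 181 TPM (4.28 ± 0.11, adjusted p = 4.81e-09), and the acute libraries lay between, at 80.7, 97.1 and 84.8 TPM. HCC2935 showed a rise of like size at a lower level, from 1.45, 0.908 and 0.95 to 23.1, 25.9 and 25.4 TPM (4.30 ± 0.21, adjusted p = 1.43e-06). In HCC827 it went from 1.37, 0.344 and 0.934 to 1.85, 5.99 and 3.62 TPM (2.09 ± 0.58, adjusted p = 0.0211), which was lost with the replicate block (0.0543) and without DMSO replicate 2 or 3 or DTP replicate 2 (0.0535 to 0.0904). In H1975 the groups overlapped (0.41 ± 0.26, adjusted p = 0.231). The transcript AC114488.2 overlaps COL16A1 exons on the opposite strand.

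The little-studied FACIT collagens differed in level between lines. COL20A1 was at 0.148, 0.0661 and 0.0534 TPM in untreated HCC827 and at 19.6, 12.7 and 32.4 TPM in its DTPs (7.84 ± 0.52, adjusted p = 4.8e-05). In PC9 its rounded counts were 0 in the 3 DMSO libraries and its DTP libraries held 1.04, 1.79 and 1.95 TPM, at least 138-fold higher with a floor of 3 counts over the group. In H1975 it fell (-1.52 ± 0.41, adjusted p = 0.0155) from below 0.4 TPM, a call lost with all 15 libraries (0.0698) and without DMSO replicate 1 or 3 or DTP replicate 1 or 3 (0.0511 to 0.0637). COL21A1 had 2 counts over the DMSO group of H1975 and 253 over its DTPs, a ratio of 125 (exact 95% interval 34.2 to 1040). In HCC2935 it rose with acute drug, from 9.45, 9.62 and 11.6 to 37.9, 28.1 and 31.8 TPM (1.67 ± 0.14, adjusted p = 1.58e-05), and was then lower in DTPs than under DMSO, at 4.84, 4.73 and 4.13 TPM (fell by 1.33 ± 0.15, adjusted p = 0.000107). COL22A1 was expressed in HCC2935 only, from 3.59, 3.77 and 2.67 to 17.6, 21.4 and 25.6 TPM, and was at or below 0.209 TPM in every group mean of the other lines.

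The transmembrane COL13A1 fell in PC9, to 0.146, 0.129 and 0.276 TPM in DTPs from 17.6, 21.2 and 21.7 TPM (fell by 6.97 ± 0.21, adjusted p = 1.27e-08). It fell as well in H1975, from 9.86, 12.1 and 7.18 to 4.43, 5.77 and 3.34 TPM (fell by 1.09 ± 0.24, adjusted p = 0.00583), and in HCC2935, from 3.02, 2.43 and 1.75 to 0.910, 0.521 and 0.610 TPM (fell by 1.99 ± 0.39, adjusted p = 0.00225). HCC827 was the exception, with a rise from 2.94, 1.96 and 4.2 to 6.71, 8.06 and 10.2 TPM (1.43 ± 0.32, adjusted p = 0.00891). The DMSO and DTP libraries did not overlap in any of the 4 lines, and the effects differed between lines (adjusted p = 3.92e-10). Of the multiplexins, COL18A1, the source of the fragment endostatin, rose in PC9, HCC827 and HCC2935 (0.83, 1.27 and 1.51), and COL15A1 was called in no line. The exons of COL18A1 are overlapped on the other strand by those of SLC19A1.

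DTPs also differed from the acute arm, which holds the same dose for 24 h. The comparison gave 9 rises and 6 falls of 29 in PC9 (all genes 19.2% and 20.6%), 18 and 3 of 30 in HCC827 (15.7% and 13.8%), 4 and 9 of 35 in H1975 (11.2% and 14.9%), and 16 and 5 of 31 in HCC2935 (22% and 20.4%). COL12A1 and COL4A4 were higher in DTPs than after acute drug in all 4 lines, COL12A1 by 0.80 ± 0.12, 2.91 ± 0.41, 1.71 ± 0.17 and 1.64 ± 0.28 on the log2 scale in PC9, HCC827, H1975 and HCC2935. COL5A1 was higher in PC9 (2.20 ± 0.21, adjusted p = 0.000124), HCC827 (4.38 ± 0.25, 0.000147) and HCC2935 (2.54 ± 0.14, 1.31e-06). In H1975 it was not called (0.12 ± 0.25, adjusted p = 0.759), and there the acute libraries already held 219.5, 183 and 266 TPM. COL4A1 in HCC2935 went from 21.1, 24.2 and 16.6 TPM after a day of drug to 339, 449 and 388 TPM in DTPs (4.06 ± 0.19, adjusted p = 6.29e-07). COL7A1 in H1975 was lower in DTPs than after acute drug (fell by 3.07 ± 0.32, adjusted p = 0.000671), as were COL17A1 and COL1A1. The H1975 calls numbered 7 without acute replicate 3 and 8 without DTP replicate 1, in place of 13.

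After 24 h without drug, collagens were called mainly in PC9. There 7 rose and 1 fell of 30 relative to DTPs (23.3% and 3.33%), against 12.1% and 10.1% of all genes. These were COL4A5, COL4A6, COL6A1, COL6A2, COL7A1, COL10A1 and COL27A1, and COL11A2 was the one that fell. COL10A1, with a mean of 0.601 TPM after this washout, was not among the expressed collagens. COL6A1 went back up from 74.5, 65.6 and 65.2 to 115, 123 and 117 TPM (0.79 ± 0.08, adjusted p = 0.000602), still below its DMSO libraries. COL7A1 went on from 106, 93.8 and 110.4 to 145, 154 and 116 TPM (0.43 ± 0.11, adjusted p = 0.0272). The PC9 count was 4 without DTP replicate 2, 5 without short washout replicate 2, and 3 in a fit of all 15 libraries of the line. It was 10 at an unadjusted edgeR p under 0.05. In HCC2935, 1 of 31 rose, COL4A6, from 20.4, 21.1 and 20.6 to 25.8, 30.5 and 27.3 TPM (0.44 ± 0.09, adjusted p = 0.0279; all genes 2.47% higher and 1.04% lower). The count was 3 without DTP replicate 1 and 0 without any one of the other 5 libraries, and DESeq2 called 5. It was 9 at an unadjusted edgeR p under 0.05. In HCC827 no collagen was called of 32 by edgeR, and 0% of all genes in either direction. At an unadjusted p under 0.05 there were 3, and DESeq2 and limma called 0. In H1975 none was called of 33, again with 0% of all genes higher or lower, with 2 at an unadjusted p under 0.05, 1 by DESeq2 and 0 by limma. With the replicate number as a block, COL7A1 and COL1A1 were called higher in H1975 (2 in all), and still 0 in HCC827.

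In the short washout libraries the DTP replicates were mirrored by number in these 2 lines. In HCC827, replicate 1 stood above the others for COL4A2 both in DTPs, 129.6, 58.8 and 69.7 TPM, and after short washout, 145, 68.7 and 66.6 TPM. COL4A1 did the same, with 33.3, 13.5 and 16.7 and 43.4, 15.6 and 15.5 TPM. In H1975, replicate 2 was the lowest for COL5A1 in both arms, with 282, 154 and 297 and 277, 162 and 291 TPM, and its collagen sums were 726 and 711 TPM where the others lay between 1010 and 1103. Libraries of the same number thus deviated together in these arms.

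After the long washout few collagens were called against DTPs. In PC9, 1 rose and 2 fell of 30, against 11.8% and 5.47% of all genes, namely COL13A1 upward (3.57 ± 1.02, adjusted p = 0.0495) and COL4A3 and COL7A1 downward. At an unadjusted edgeR p under 0.05 there were 13 in PC9. The PC9 replicates disagreed. COL16A1 was at 37.6, 22.6 and 140.3 TPM, COL13A1 at 1.40, 4.45 and 0.206 TPM and the collagen sum at 376, 354 and 551 TPM, so replicate 3 had the most COL16A1 and the highest sum of the group. Without that replicate 14 collagens were called, among them COL16A1, COL5A1 and COL20A1 lower than in DTPs, and without any one of the other 5 libraries none was. In HCC2935, 1 of 33 rose, COL4A6 again (0.54 ± 0.10, adjusted p = 0.0263; all genes 2.99% and 2.17%). Its replicate 1 held a collagen sum of 3074 TPM beside 1905 and 2106, and without it 6 were called, with COL4A1, COL4A2, COL4A3 and COL4A4 lower and COL4A6 and COL13A1 higher. Without any one of the other 5 libraries the count was 0. At an unadjusted edgeR p under 0.05 there were 9 in HCC2935. In HCC827 edgeR called none of 30 (0% of all genes in either direction, 0 at an unadjusted p under 0.05, 0 by DESeq2 and limma). In H1975 it called none of 34 (0% of all genes higher and 0.0136% lower, 2 at an unadjusted p under 0.05, 0 by DESeq2 and limma).

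After regrowth collagens were still called against DMSO in every line. In PC9, 8 rose and 4 fell of 27 (29.6% and 14.8%, all genes 15.9% and 14.7%), so the share of falls was near that of all genes. The mean collagen sum in PC9 was 0.941 of that under DMSO. This ratio was 3.35 in HCC827, 2.80 in H1975 and 5.51 in HCC2935, all without a test. In HCC827, 20 rose and 1 fell of 29 (19.7% and 19.9%), and in H1975, 18 rose and 6 fell of 35 (26.8% and 28.2%). In HCC2935, 24 rose and 2 fell of 32 (21% and 18.9%). COL5A1, COL12A1 and COL4A4 were higher than under DMSO in all 4 lines. COL5A1 was at 18.1, 8.13 and 25.8 TPM in PC9, 85.7, 105 and 63.5 TPM in HCC827, 287, 315 and 342 TPM in H1975 and 596, 317 and 407 TPM in HCC2935, with log2 fold changes over DMSO of 2.70 ± 0.34 (adjusted p = 0.00275), 4.42 ± 0.24 (7.18e-06), 1.75 ± 0.14 (4.24e-05) and 2.95 ± 0.21 (1.16e-05). COL12A1 in H1975 was at 301, 329.7 and 283 TPM (3.49 ± 0.25, adjusted p = 2.79e-05). Falls against DMSO were called too, with COL7A1 in H1975 at 12.4, 13.2 and 15.4 TPM (fell by 2.64 ± 0.21, adjusted p = 4.24e-05) and COL6A1 in PC9 at 61.9, 98.9 and 89.9 TPM (fell by 1.36 ± 0.19, adjusted p = 0.00395). DTPs and long washout share these DMSO libraries, so each set of values stands on its own. The PC9 count was 7 in place of 12 without DMSO replicate 3.

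Lists of genes that make, trim, bind and break down collagen were counted in DTPs against DMSO. Over all genes tested, 35.4% rose and 35.9% fell in PC9, 19.4% and 17.2% in HCC827, 22.4% and 23.4% in H1975, and 25.3% and 27.2% in HCC2935. Of 20 genes of collagen synthesis, which hydroxylate, glycosylate and fold the chains, 11 rose and 6 fell in PC9 (55% and 30%), 10 and 3 in HCC827 (50% and 15%), 11 and 2 in H1975 (55% and 10%), and 12 and 1 in HCC2935 (60% and 5%). SERPINH1, the collagen chaperone HSP47, was chosen for mention after its values were seen and rose in all 4 lines (0.27 ± 0.08, 1.32 ± 0.17, 1.18 ± 0.14 and 0.39 ± 0.08). The largest called rises by the naming rule were P3H3 in PC9 (3.58 ± 0.58), PLOD2, a lysyl hydroxylase, in H1975 (1.25 ± 0.15) and P3H2, a prolyl hydroxylase, in HCC2935 (2.26 ± 0.12). In HCC827 it was COLGALT2, which adds galactose, at 2.73 CPM (counts per 1000000 counts of the library) in DTPs and 0.0156 CPM under DMSO. The largest falls were COLGALT1 in PC9 (by 0.94 ± 0.09), the prolyl hydroxylase subunit P4HA1 in HCC827 (by 0.99 ± 0.17), PLOD3 in H1975 (by 0.77 ± 0.10) and CRTAP in HCC2935 (by 0.44 ± 0.10). Some of these moved the other way elsewhere. PLOD2 was called lower in PC9 and HCC827, COLGALT1 higher in H1975, and CRTAP higher in HCC827 and H1975.

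Among genes that process and crosslink collagen, 8 rose and 4 fell of 13 in PC9 (61.5% and 30.8%, against 35.4% and 35.9% of all genes), 8 and none of 12 in HCC827 (66.7% rose, against 19.4%), 7 and 3 of 13 in H1975 (53.8% and 23.1%, against 22.4% and 23.4%), and 6 and 1 of 12 in HCC2935 (50% and 8.33%, against 25.3% and 27.2%). The shares of falls in PC9 and H1975 were near those of all genes. SPARC, a collagen-binding secreted protein, was called higher in all 4 lines. It led in PC9, from 0.0466 to 3.65 CPM (6.09 ± 0.65, adjusted p = 1.71e-05), where the crosslinking enzyme LOXL1 fell from 81.3 to 6.99 CPM (by 3.54 ± 0.10, adjusted p = 5.77e-09). The amino-propeptidase ADAMTS14 led in H1975 (3.89 ± 0.39) and in HCC827, where it went from 0.0304 to 6.44 CPM, and fell in HCC2935 (by 1.51 ± 0.15), in which the crosslinker LOX rose from 0.559 to 26.2 CPM (5.55 ± 0.33, adjusted p = 4.17e-06). PCOLCE fell in H1975 (by 1.20 ± 0.33) and was called higher in PC9 and HCC2935. LOXL1 was called higher in HCC827 and H1975.

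Collagen receptors were called at shares near those of all genes in PC9, HCC827 and H1975. There were 3 rises and 3 falls of 9 in PC9 (33.3% each, against 35.4% and 35.9%), 1 and 1 of 7 in HCC827 (14.3% each, against 19.4% and 17.2%), 3 and 2 of 10 in H1975 (30% and 20%, against 22.4% and 23.4%), and 3 and none of 9 in HCC2935 (33.3% rose, against 25.3%). ITGA2, the alpha chain of a collagen-binding integrin, fell in PC9 (by 1.97 ± 0.16, adjusted p = 3.27e-06), HCC827 (by 0.99 ± 0.14, 0.00116) and H1975 (by 2.23 ± 0.21, 0.000154). MRC2, an uptake receptor for collagen fragments, rose in HCC827 (3.91 ± 0.18) and HCC2935 (3.45 ± 0.41), the collagen receptor kinase DDR2 in H1975 (3.92 ± 0.29) and GP6 in PC9 (2.22 ± 0.60). Of the breakdown list, 4 rose and 1 fell of 6 in PC9 (66.7% and 16.7%, against 35.4% and 35.9%), 5 and none of 9 in HCC827 (55.6% rose, against 19.4%), 2 and 4 of 9 in H1975 (22.2% and 44.4%, against 22.4% and 23.4%), and 7 and 2 of 11 in HCC2935 (63.6% and 18.2%, against 25.3% and 27.2%). MMP14, a membrane collagenase, rose in PC9 (4.07 ± 0.11, adjusted p = 6.73e-09) and H1975 (1.64 ± 0.15, 0.00013), and was also called higher in HCC2935. MMP2, a gelatinase that cleaves type IV, rose in HCC827 (4.53 ± 0.96) and HCC2935 (4.32 ± 0.35) and was called lower in PC9. The collagenase MMP1 fell in HCC2935 from 194 to 11.6 CPM (by 4.07 ± 0.37, adjusted p = 3.66e-05) and MMP13 fell in H1975 (by 2.48 ± 0.31). MMP1 was also called lower in H1975, while both MMP1 and MMP13 were called higher in HCC827.

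TGF-beta is a known inducer of collagen genes, and of 13 genes of its axis 7 rose and 3 fell in PC9 (53.8% and 23.1%, against 35.4% and 35.9%), 8 and none in HCC827 (61.5% rose, against 19.4%), 7 and 2 in H1975 (53.8% and 15.4%, against 22.4% and 23.4%), and 6 and 2 in HCC2935 (46.2% and 15.4%, against 25.3% and 27.2%). CCN2, a matrix protein that TGF-beta and YAP can induce, rose in PC9 (4.09 ± 0.43), H1975 (2.39 ± 0.29) and HCC2935 (3.16 ± 0.28). TGFBI fell in PC9 (by 1.31 ± 0.11) and H1975 (by 0.67 ± 0.19), and SMAD4 in HCC2935 (by 0.34 ± 0.08). In HCC827 both CCN2 and TGFBI were called higher. Whether any of these bears on the collagen levels was not tested.

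Mesenchymal and stromal markers moved with the collagens in part. The 6 mesenchymal markers summed to 37.3 to 55.7 TPM per library under DMSO and 317 to 582 in DTPs of PC9, where FN1 carried the sum at 24.5 and 415 TPM in the group means and VIM fell from 24.5 to 14.9 CPM (by 0.72 ± 0.27, edgeR adjusted p = 0.0332). In HCC827 the sum was 137 to 174 TPM and then 998 to 1117, with VIM at 93.7 and 659 TPM, and in HCC2935 it was 1142 to 1355 and then 5260 to 7429, with FN1 at 1215 and 6111 TPM. H1975 was high throughout, at 1237 to 2112 TPM under DMSO and 1872 to 2412 in DTPs. Its VIM and FN1 were not called, while ZEB2 (1.39 ± 0.18), ZEB1 (0.74 ± 0.26) and SNAI2 (0.54 ± 0.19) were called higher. In PC9 CDH2 was also called lower and ZEB2 and SNAI2 higher, with CDH2 and ZEB2 below 1 CPM. The sum of the 8 stromal markers was 1.07 to 1.36 and 1.98 to 3.53 TPM in PC9, 1.08 to 2.89 and 3.84 to 18.7 in HCC827, 5.10 to 6.17 and 17.5 to 28.0 in H1975, and 3.98 to 5.07 and 3.55 to 6.22 in HCC2935, under DMSO and in DTPs. In HCC2935, where the summed collagens went up most, this stromal sum overlapped between the groups, and LUM and ACTA2 were not called. Stromal markers were called higher in the other lines. These were PDGFRB in PC9 (2.93 ± 0.75), HCC827 (5.39 ± 0.96) and H1975 (1.51 ± 0.30), LUM in HCC827 (4.34 ± 0.71) and H1975 (5.18 ± 0.80), and ACTA2 in H1975 (2.20 ± 0.33). LUM, and PDGFRB in PC9 and HCC827, started below 1 CPM. DCN, POSTN and THY1 were below 1 TPM in every group. Epithelial sums under DMSO and in DTPs were 8596 to 8948 and 9749 to 10180 TPM in PC9, 8229 to 10640 and 3345 to 5892 in HCC827, 3615 to 4621 and 2370 to 3107 in H1975, and 12260 to 13520 and 10470 to 11550 in HCC2935. In HCC827, 5 of the 6 epithelial markers fell, EPCAM by 1.84 ± 0.25, CDH1 by 1.81 ± 0.34, KRT18 by 1.57 ± 0.16, KRT8 by 1.08 ± 0.21 and KRT19 by 0.89 ± 0.22, and KRT7 was not called (edgeR adjusted p = 0.116). In HCC2935, 4 of the 6 fell (EPCAM, KRT8, KRT18 and KRT19), and in PC9 EPCAM, KRT7 and KRT18 fell while CDH1 and KRT19 rose. The part of cell state in the collagen values was not tested.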

How the data were processed

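RNA-seq libraries (TruSeq mRNA, HiSeq4000, paired-end) of 4 lines in 5 arms, 60 libraries, were analysed from gene tables. The authors deposited estimated counts per gene, not normalized, and log2 TPM with a pseudocount of 0.01, whose lowest value was -6.64. The submitters' processing notes name HISAT2 2.1.0, Salmon 0.8.2 and hg38, and the annotation and the strand setting are not given in the sources used here. TPM was recovered from the log2 values for levels, sums and shares, and totals over the 19712 listed genes were 0.806 to 0.891 M (1000000).

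Estimated counts were rounded and tested with edgeR 4.0.16 (R 4.3.3, TMM, filterByExpr, quasi-likelihood test) over the 6 libraries of each of 24 comparisons, 6 per line. P-values were adjusted by Benjamini-Hochberg over all genes tested, and 0.05 was the threshold. Differences between lines were tested by joint F-tests. Members with 0 counts in a group were described against a floor of 3 counts over the group, and those with 1 to 3 counts by a ratio of counts with its exact 95% interval, which cover counting error only. The members, gene lists and tests were chosen with earlier results of these data known. The scripts were tested on simulated data.

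Named collagens were the 10 with the highest group mean and, per line, the 2 largest rises and falls in DTPs averaging 1 CPM or more whose sign was shared by all 3 same-numbered pairs. Companion lists were named likewise by 1 rise and 1 fall, of which 1 gene is not reported here. Other genes named were chosen after their values were seen. Groups came from the labels. Libraries differed from their replicates by 8.66 to 130 times the counting error (60 pairs), so none was a repeat of another. Same-numbered libraries were taken as paired where all 3 correlations of deviations from the group means exceeded 0.1, which held in 3 of the 24 comparisons: HCC827 short washout against DTP (lowest 0.371), H1975 short washout against DTP (0.231) and HCC2935 acute against DMSO (0.104). Alternatives were relative log expression (RLE) scaling, no filter, DESeq2 1.42.0, limma 3.58.1 on log2 TPM, all 15 libraries of a line, a replicate block and leaving out each library. Promoter windows were from RefSeq. Figures used matplotlib 3.10.9.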

Additional observations from a re-analysis of the deposited data

Results flagged for a closer look

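The named collagens below had an effect that differed between the 4 lines in an edgeR joint F-test (adjusted p below 0.05), and each value is the span of log2 fold changes from the lowest to the highest line. No other reason marked a result, since groups of 3 are too small for an outlier test. For acute drug against DMSO the spans were 1.17 for COL5A1 (HCC827 to PC9, adjusted p = 0.00164), 2.1 for COL12A1 (HCC827 to H1975, 0.00882), 0.983 for COL4A5 (HCC827 to H1975, 0.00518), 1.69 for COL6A1 (PC9 to HCC2935, 4.26e-06) and 1.93 for COL8A1 (PC9 to H1975, 0.00649). They were 4.04 for COL16A1 (HCC827 to PC9, 6e-07), 1.46 for COL1A1 (HCC2935 to H1975, 0.0389), 7.61 for COL13A1 (PC9 to HCC827, 2.1e-08), 3.31 for COL4A4 (HCC827 to H1975, 0.00144) and 2.64 for COL4A3 (PC9 to HCC2935, 0.0305). COL1A1 was thus called higher in all 4 lines and still differed in size. The COL4A4 span rests on low levels, with means of 0.107 TPM in HCC827 under DMSO and with drug. In H1975 they were 0.0357 TPM under DMSO and 0.339 TPM with drug.

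For DTPs against DMSO the spans were 3.25 for COL5A1 (H1975 to HCC827, 1.45e-06), 4.37 for COL4A1 (H1975 to HCC2935, 0.000104), 3.68 for COL4A5 (HCC827 to HCC2935, 5.95e-09), 4.10 for COL6A1 (PC9 to HCC827, 3.33e-10) and 4.35 for COL8A1 (PC9 to H1975, 4.82e-06). They were 3.89 for COL16A1 (H1975 to HCC2935, 3.73e-07), 4.56 for COL7A1 (H1975 to HCC827, 8.69e-07), 8.40 for COL13A1 (PC9 to HCC827, 3.92e-10), 2.62 for COL4A4 (PC9 to HCC2935, 0.0106) and 4.78 for COL4A3 (PC9 to HCC2935, 0.000345). COL6A1, COL7A1, COL8A1 and COL13A1 were called in opposite directions in different lines. The low end of the COL4A1 span, H1975, was not called (-0.649, and -2.64 to -0.0788 with a library left out). COL4A1 stood there at 0.0883 TPM under DMSO and 0.0578 TPM in DTPs.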

How the results depend on the processing

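For acute drug and DTPs against DMSO, no named collagen called in the main or the alternative fit changed direction between them. Uncalled changes could switch sign, as for COL4A2 in PC9 DTPs, at -0.772 to 0.274 on the log2 scale with a library left out. The counts of called collagens in acute against DMSO, DTP against DMSO, DTP against acute and long washout against DMSO stayed within 1.5 times in every line, except as follows. HCC827 acute (8) gave 5 with all 15 libraries and 4 to 7 with a library left out, H1975 DTP against acute (13) gave 7 to 15, and PC9 long washout against DMSO (12) gave 7 to 15. Washout counts against DTPs were small and moved more. PC9 short washout (8) gave 5 with the replicate block, 3 with all 15 libraries and 4 to 6 with a library left out. PC9 long washout (3) gave 8 with DESeq2, 1 with limma, 5 with the replicate block, 9 with all 15 libraries and 0 to 14 with a library left out. H1975 short washout (0) gave 1 with DESeq2 and 2 with the replicate block. HCC2935 short washout (1) gave 2 without the filter, 5 with DESeq2, 0 with limma, 0 with the replicate block and 0 to 3 with a library left out. HCC2935 long washout (1) gave 2 without the filter, 4 with DESeq2, 0 with limma, 0 with the replicate block, 4 with all 15 libraries and 0 to 6 with a library left out. The cause was not tested. Beyond the 3 paired comparisons, libraries share only a number. Results of single named collagens, called or not, were also followed. The replicate block left 118 of these unchanged in status, lost 3 calls and added 5. The fit of all 15 libraries lost 6 calls and added 1, DESeq2 lost 2 and added 2, and limma lost 2 and added 1. No filter lost 1 and added 1, and RLE lost 0 and added 1. Leaving out a library lost 54 calls, added 9 and left 693 results, called or not, unchanged in status. With all 15 libraries the calls lost were the acute ones of COL1A1 in HCC2935 and of COL4A1, COL4A2, COL4A3 and COL17A1 in HCC827, and the DTP call of COL20A1 in H1975. Depth limits the members near 0 TPM, whose folds rest on few counts.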
